A study of Mus musculus with 4 samples.

Results

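Runx1, Runx2 and Runx3, the DNA-binding subunits of core binding factor, and Cbfb, their shared non-DNA-binding partner, were followed by gene symbol through every transcript of the annotation. They are 4 of 55536 annotated genes and hold 33 annotated transcripts. The data were polyA-selected RNA-seq of regulatory T cells (Treg) that had experienced inflammation, from an adult male mouse aged 6 months of the strain Foxp3CreERT2 x Rosa26YFP. Such a strain expresses a tamoxifen-inducible Cre recombinase from the Foxp3 locus and carries a fluorescent reporter at Rosa26. The labels number 4 technical replicates of 1 biological replicate, called libraries 1 to 4 here. All libraries form 1 group, so nothing was compared between conditions. Every spread or p-value below describes libraries that are labelled as technical replicates of the same biological replicate.

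The Runx proteins bind DNA through the Runt domain. Cbfb pairs with that domain, raises its affinity for DNA and protects the protein from degradation. Each Runx gene has a distal promoter and a proximal promoter, far apart, and their transcripts encode proteins that differ at the amino terminus. In T cells, Runx complexes silence Cd4 in the CD8 lineage, bind the Foxp3 locus and are partners of the Foxp3 protein. Runx2 is best known as a master regulator of osteoblasts, the bone-forming cells.

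The libraries held 9284432, 9341328, 9325636 and 6648385 expected counts on genes in the order of their numbers, so library 4 was the shallowest. Expected counts are reads that the authors' software divided among transcripts that share sequence, and TPM is the same quantity corrected for transcript length and scaled to a fixed total per library. All 6 T cell markers and all 6 Treg markers reached 1 TPM in every library. So did 5 of 6 B cell and 5 of 6 plasmacytoid dendritic cell markers. The exceptions were Pax5 of the B cell list and Siglech of the plasmacytoid list. Siglech stood at 0.85, 0, 0.20 and 0 TPM in libraries 1 to 4. Of the plasmacytoid markers that passed, Bst2 was the highest (70.4 ± 32.4 TPM), and Ccr9 is also listed below as a Runx target in T cells. Of the erythroid and megakaryocyte markers 2 of 9 did, and of the monocyte and macrophage markers 1 of 6. None of 8 osteoblast and stromal markers and none of 6 stem and progenitor markers did in the main table, that of the expected counts. Sp7, Bglap, Ibsp, Pdgfrb and Gata2 were listed at 0 throughout it. In a second transcript table, made directly from the reads, Sp7 averaged 1.77 TPM and Col1a1 1.54. Summed TPM of 9 erythroid and megakaryocyte markers was 1091 in library 1 and 40.6 to 58.7 in the others. Globin RNA made up most of the sum in library 1: Hba-a1 (220 TPM), Hba-a2 (396), Hbb-bs (344) and Hbb-bt (100). Alas2 (4.57) was also highest there. Other markers did not follow: Gata1 (35.0) and Pf4 (0.31) were highest in library 2, and Klf1 (0.27) and Itga2b (1.10) in library 4. That of 6 B cell markers ran from 80.4 to 183, and that of 6 plasmacytoid dendritic cell markers from 104 to 208. In bulk RNA, more cells with a transcript and more transcript per cell cannot be told apart.

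The starts of the Runx coding sequences show what separates the distal and proximal transcripts whose levels follow. The first coding exon of each main distal transcript has 58 bases in all 3 genes. These are given 5′ to 3′ on the coding strand, from the GENCODE M21 transcripts on mm10, with the start codon in capitals. Runx1-201 lies at chr16:92825589-92825646 on the minus strand, Runx2-202 at chr17:44814169-44814226 on the minus strand and Runx3-201 at chr4:135121106-135121163 on the plus strand.
Runx1-201: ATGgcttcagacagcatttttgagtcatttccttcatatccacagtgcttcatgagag
Runx2-202: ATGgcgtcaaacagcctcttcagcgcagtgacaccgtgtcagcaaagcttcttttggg
Runx3-201: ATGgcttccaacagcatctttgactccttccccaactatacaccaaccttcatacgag
Runx1 and Runx3 share 41 of the 58 bases, Runx1 and Runx2 share 34, and Runx2 and Runx3 share 33.

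Proximal transcripts begin their coding sequence with 16 bases of their own, directly before the exon sequence common to both kinds. They lie at chr16:92695738-92695753 (minus strand), chr17:44735619-44735634 (minus strand) and chr4:135152772-135152787 (plus strand), again with the start codon in capitals.
Runx1-203: ATGcgtatccccgtag
Runx2-203: ATGcgtattcctgtag
Runx3-202: ATGcgtattcccgtag
Here 14 of 16 bases are the same in Runx1 and Runx2, and 15 of 16 in each of the other pairs. The proximal coding starts are thus more alike among the 3 genes than the distal ones. Runx1-202 and Runx1-203 share their start codon, but Runx1-203 begins shortly after the proximal start group and is counted below with the other starts.

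Runx1 had the highest mean level of the 4 genes and Runx2 the lowest. Runx1 (ENSMUSG00000022952.17, chr16:92601466-92826149, minus strand), which is needed for T cell development and for Treg function, stood at 29.99, 24.39, 35.63 and 29.59 TPM in libraries 1 to 4, a mean of 29.9 ± 4.59 (SD, n = 4). Cbfb (ENSMUSG00000031885.14, chr8:105170674-105217989, plus strand) stood at 21.88, 18.36, 26.09 and 35.79 TPM, a mean of 25.5 ± 7.53. The ranges of these 2 genes overlapped, and library 4 was the only one with Cbfb above Runx1.

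Runx3 (ENSMUSG00000070691.10, chr4:135120652-135177990, plus strand), the main Runx factor of CD8 T cells, stood at 8.23, 5.88, 6.99 and 10.04 TPM, a mean of 7.79 ± 1.78. Runx2 (ENSMUSG00000039153.16, chr17:44495987-44814797, minus strand) stood at 4.45, 4.73, 6.34 and 7.22 TPM, a mean of 5.69 ± 1.32. Their ranges overlapped too, but Runx3 was the higher in each library, and every library of Runx1 and Cbfb lay above every library of both. Among 22015 nuclear protein-coding genes, the mean TPM of Runx1 was above 82.4% of genes, that of Cbfb above 80.5%, that of Runx3 above 65.9% and that of Runx2 above 63.2%.

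**Figure D1:**
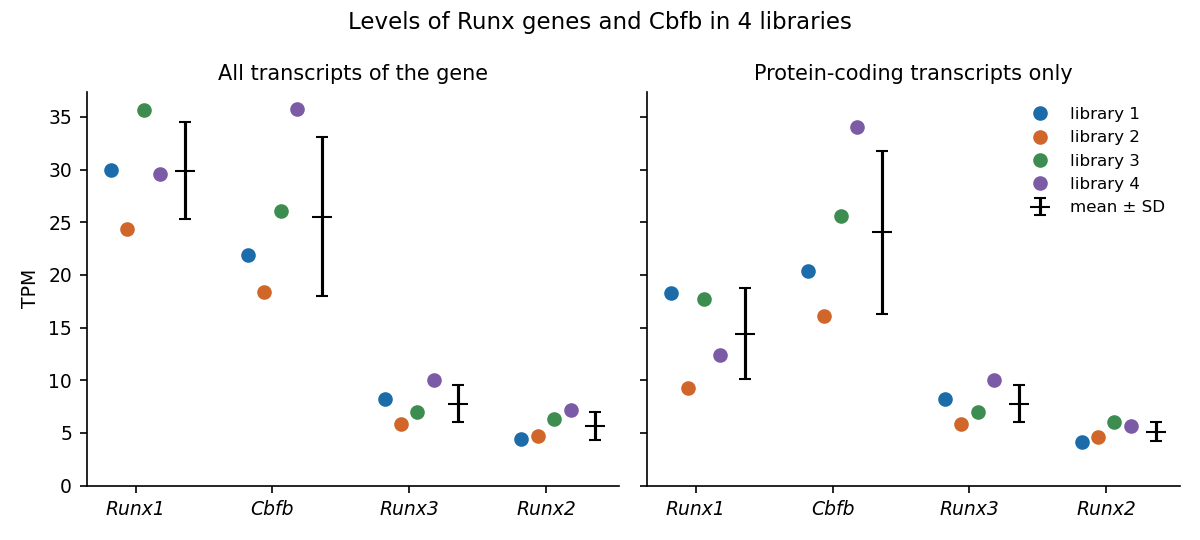
TPM of the 4 genes in each of 4 libraries, from all transcripts (left) and protein-coding transcripts only (right), with the mean and SD beside the points. On the left, Runx1 and Cbfb lie between 18.36 and 35.79 TPM with overlapping ranges and Runx3 and Runx2 below them at 4.45 to 10.04 TPM, while on the right Runx1 lies at 9.29 to 18.33 TPM.

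The 6 pairs of genes were compared as log2 ratios of TPM + 0.1 within each library. Runx1 exceeded Runx3 by 1.94 ± 0.33 (mean ± SD, n = 4) and Runx2 by 2.39 ± 0.29, and Cbfb exceeded Runx3 by 1.68 ± 0.22 and Runx2 by 2.13 ± 0.18, each in 4 of 4 libraries. Runx3 exceeded Runx2 by 0.45 ± 0.31, also in 4 of 4 libraries. For these 5 pairs the two-sided exact sign-flip permutation test gave p = 0.125, adjusted p = 0.15, the smallest p that 4 libraries allow, so no pair could pass 0.05.
Neighbours in the order were less clearly apart. Runx1 exceeded Cbfb by 0.26 ± 0.36 in 3 of 4 libraries, less than the spread between libraries (exact permutation p = 0.25, adjusted p = 0.25). The order of Runx3 and Runx2 rested on the length correction, because without it, on plain counts per library size, their ratio was −0.07 ± 0.35.

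The 3 Runx genes summed to 43.4 ± 6.16 TPM (n = 4), of which Runx1 made up 69.0 ± 4.10%. Cbfb stood at 0.584 ± 0.121 of that sum, with 0.513, 0.525 and 0.533 in libraries 1 to 3 and 0.764 in library 4. The sum for Runx1 includes transcripts with no coding sequence, which are described next. With protein-coding transcripts alone, a choice made after seeing the data, Runx1 stood at 14.4 ± 4.33 TPM and Cbfb at 24.0 ± 7.70. That Runx1 level, also used in the coding ratios that follow, includes short fragments. These are Runx1-204 (68 codons) at 3.02 ± 3.09 TPM and Runx1-205 (63 codons) at 2.715 ± 0.86 TPM. The log2 ratio of Runx1 over Cbfb was then −0.73 ± 0.54 and below 0 in 4 of 4 libraries (exact permutation p = 0.125), and Cbfb stood at 0.881 ± 0.231 of the coding Runx sum.

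Most Runx1 RNA was assigned to transcripts that start at the distal promoter. Annotated starts were grouped where neighbours lay within 1000 bp. The distal and proximal groups were 128821 bp apart in Runx1, 78149 bp in Runx2 and 31844 bp in Runx3. The distal group held 83.3%, 86.2%, 76.1% and 76.8% of Runx1 TPM in libraries 1 to 4, or 80.6 ± 4.95% (n = 4). The proximal group held 10.3 ± 3.01%. Starts further downstream held 9.15 ± 2.00% of TPM but only 1.73 ± 0.59% of expected counts. Of their 45.1 expected counts, 40.99 belonged to Runx1-205, a short transcript of 716 nt with 63 annotated codons. Every library had far more distal than proximal Runx1.

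Runx2 and Runx3 were assigned even more to their distal starts. The Runx2 distal share was 92.8%, 97.0%, 95.3% and 89.9%, or 93.8 ± 3.11%, and its proximal group had 24.37 expected counts over the 4 libraries together. Of these, 23.06 belonged to Runx2-212, a transcript annotated as a target of nonsense-mediated decay. Runx3 had all of its 788 expected counts in Runx3-201, the only annotated distal transcript, and its proximal group was at 0 in each library. If every read of the gene could tell the starts apart, a count of 0 would allow a proximal share of up to 1.39% to 1.74% per library. This covers counting error alone. Reads in the exons common to both starts cannot tell them apart, so the real limit is looser and was not estimated. In the second transcript table, which the authors made from the reads and an index of transcripts, the Runx3 distal share was 99.7 ± 0.507%.

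The log2 ratio of distal to proximal TPM + 0.1 was 2.98 ± 0.52 for Runx1 and 3.64 ± 0.59 for Runx2. For Runx3 it was 6.27 ± 0.33, which depends on the added 0.1 because the proximal value was 0. All 3 ratios were above 0 in 4 of 4 libraries, with an exact sign-flip permutation p of 0.125 (two-sided, adjusted 0.125), the smallest possible. The 100-bp to 300-bp fragments cover far less than the gap between the starts, so a read in the shared exons belongs to no one start, and the division rests on the authors' estimation.

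**Figure D2:**
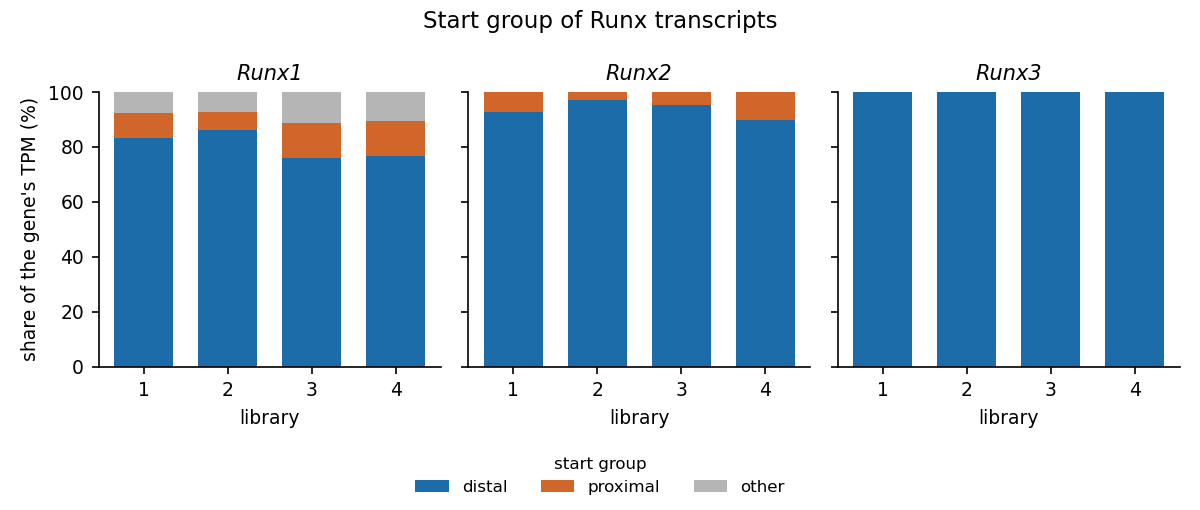
Stacked bars of the percent of the TPM of Runx1, Runx2 and Runx3 assigned to distal, proximal and other annotated starts, per library. The distal bars reach 76.1% to 86.2% for Runx1, 89.9% to 97.0% for Runx2 and 100% for Runx3.

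The RefSeq promoter windows, 250 bases before to 50 bases after a gene start on GRCm38.p6, were available for 3 distal and 2 proximal Runx starts and for Cbfb. The longest string that all 3 distal windows share has 18 bases, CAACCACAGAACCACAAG, and holds a pair of Runx recognition cores (ACCACA). The search for it was chosen after the windows had been read. The 30 bases around it are given on the strand of the gene, with the cores in capitals. They lie at chr16:92826026-92826055 (minus strand), chr17:44814584-44814613 (minus strand) and chr4:135120502-135120531 (plus strand).
Runx1 distal: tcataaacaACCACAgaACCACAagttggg
Runx2 distal: tcacaaacaACCACAgaACCACAagtgcgg
Runx3 distal: ggtccctcaACCACAgaACCACAaggccag
Counted from the RefSeq starts, the string begins at base 27 of Runx1 and base 22 of Runx2, and at position −136 of Runx3. The GENCODE starts of Runx1-201 and Runx2-202 lie further upstream than these RefSeq starts. Among 32851 promoter windows searched on both strands, it occurred in 4 (0.0122%), of which 3 are the distal Runx windows that defined it. The other window is that of Gm16225, a noncoding gene on the opposite strand whose window overlaps that of Runx3. The percentage is thus no independent measure of how rare the string is. At least 1 ACCACA or TGTGGT was common, in 16.8% of windows, at least 2 were found in 1.81%, and neither occurred in the proximal windows of Runx1 and Runx3 or in that of Cbfb.

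The distal and proximal windows also differed in base composition. The distal windows had 45.0% (Runx1), 45.3% (Runx2) and 63.7% (Runx3) G and C, with 2, 2 and 8 CpG dinucleotides. The proximal windows had 69.0% with 35 CpG in Runx1 and 77.3% with 45 in Runx3, and the Cbfb window had 69.7% with 30. Over all windows the medians were 52.7% and 7. The CpG-rich windows of Runx1 and Runx3 were thus those with the smaller assigned share, while Cbfb was expressed from a CpG-rich one. A sequence match is a description and not a measured binding site.

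Much of the distal Runx1 RNA was assigned to a short transcript with no annotated coding sequence. Runx1-207 has 3 exons and leaves the coding path after the first coding exon, ending in an exon of 2281 bp at chr16:92815428-92817708 inside the first long intron of Runx1-201. The 60 bases around each junction show where the 2 transcripts part, with the exon after the junction in capitals. Both junctions leave chr16:92825589-92825618 on the minus strand. Runx1-201 goes on at chr16:92695708-92695737 and Runx1-207 at chr16:92817679-92817708.
Runx1-201: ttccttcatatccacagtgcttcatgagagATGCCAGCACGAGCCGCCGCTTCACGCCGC
Runx1-207: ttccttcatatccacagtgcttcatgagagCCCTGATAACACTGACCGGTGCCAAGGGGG

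Runx1-207 stood at 9.21, 13.90, 13.62 and 13.64 TPM in libraries 1 to 4, a mean of 12.6 ± 2.26 (n = 4). Runx1-201, which encodes the full-length distal protein of 465 codons, stood at 9.60, 6.36, 8.36 and 9.07 TPM, a mean of 8.35 ± 1.42. Library 1 was the only one with Runx1-201 the higher, and the log2 ratio of Runx1-207 to Runx1-201 was 0.58 ± 0.49.
As shares of Runx1 TPM, Runx1-207 held 43.0 ± 11.2% and Runx1-201 held 28.0 ± 3.98%. By expected counts, which follow the number of reads and so favour long transcripts, the order was the opposite, with 33.1 ± 7.61% for Runx1-207 and 52.1 ± 6.55% for Runx1-201. The second transcript table gave 39.0 ± 10.5% and 25.9 ± 4.54% of TPM.

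The proximal Runx1 signal was mostly not that of a full-length protein. Of 322.59 proximal expected counts, 286.66 belonged to Runx1-206, a retained-intron transcript, and 35.93 to the coding Runx1-202. The latter came to 0.28 ± 0.08 TPM. Runx1-204, a coding fragment of 336 nt, had 14.82 expected counts in all, and because of its short length these gave 6.18, 0.77, 5.13 and 0 TPM. TPM shares of such short transcripts move with a handful of reads. In Runx2, 2 counts of the 558-nt Runx2-208 likewise made up 13.2% of the gene's TPM in library 4.

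**Figure D3:**
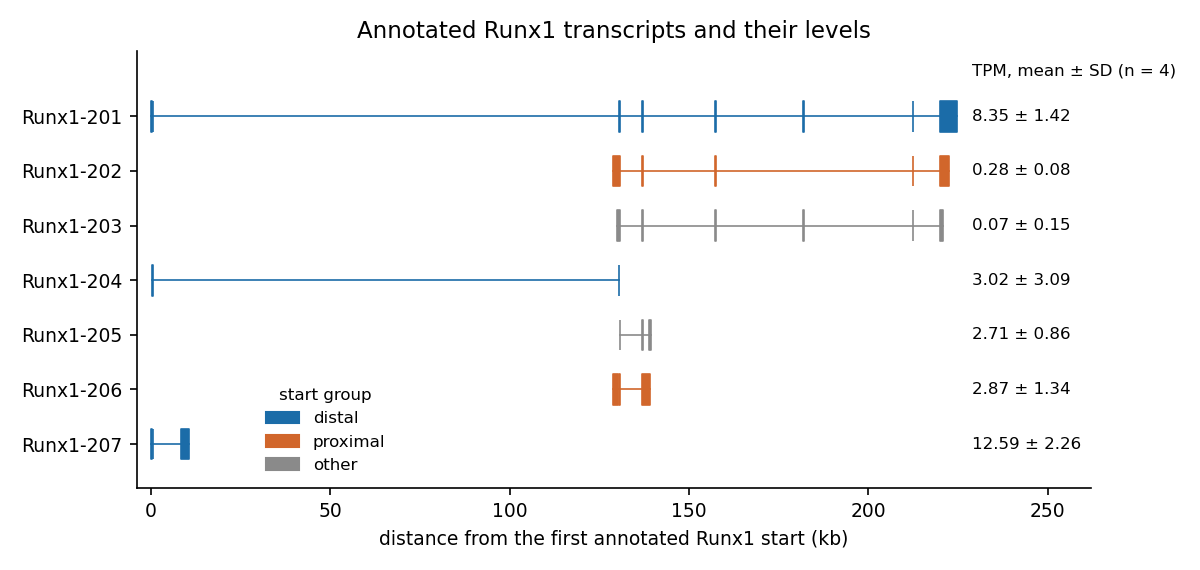
Exons (boxes) and introns (lines) of the 7 annotated Runx1 transcripts by distance in kb from the first start, coloured by start group, with the TPM (mean ± SD, n = 4) at the right. Runx1-207 has the highest TPM and ends before the proximal starts at 128821 bp, while Runx1-201 spans the gene.

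When each Runx gene was represented by its main full-length distal transcript, the 3 genes lay closer together. Runx1-201 had 8.35 ± 1.42 TPM, Runx3-201 had 7.79 ± 1.78 and Runx2-202 had 5.06 ± 0.84. They made up 39.4 ± 3.05%, 36.5 ± 3.43% and 24.1 ± 4.32% of their sum. The log2 ratio of Runx1-201 to Runx3-201 was 0.11 ± 0.18, smaller than its spread and below 0 in library 4. Runx1-201 exceeded Runx2-202 by 0.71 ± 0.34 and Runx3-201 exceeded it by 0.60 ± 0.37, in 4 of 4 libraries each. No test was planned for the full-length transcripts, so these ratios carry no p-value.

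For Cbfb, the transcript with the largest share in every library was Cbfb-203, which lacks exon 3. Exon 3 (chr8:105178593-105178709, plus strand) has 117 bases, a multiple of 3, so its loss keeps the reading frame. Cbfb-203 lacks it and encodes 148 codons, while Cbfb-201 holds it and encodes 187. Cbfb-202 uses an exon 5 lengthened by 31 bases (chr8:105202548-105202578), which shifts the frame and ends at 182 codons. Below are exon 3, the 31 added bases, and the junction of Cbfb-203 that joins chr8:105171363-105171392 to chr8:105194475-105194504 with the exon after the junction in capitals.
Exon 3: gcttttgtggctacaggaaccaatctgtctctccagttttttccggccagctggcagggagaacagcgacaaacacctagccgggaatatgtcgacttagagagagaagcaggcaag
Exon 5 extension: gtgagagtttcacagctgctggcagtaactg
Cbfb-203 junction: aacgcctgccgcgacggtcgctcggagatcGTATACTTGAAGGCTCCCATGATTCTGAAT

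Cbfb-203 held 54.4%, 66.6%, 68.6% and 69.6% of Cbfb TPM in libraries 1 to 4, or 64.8 ± 7.06% (n = 4), library 1 being the lowest. Cbfb-202 held 16.5 ± 3.98% and Cbfb-201 held 11.3 ± 4.84%. Among coding Cbfb transcripts, those without exon 3 made up 69.3 ± 7.73% of TPM.
The size of that share depended on the quantification. In the second transcript table, Cbfb-203 held 44.5 ± 5.86% of gene TPM, and transcripts without exon 3 held 55.3 ± 5.13% of coding TPM, from 49.7% in library 1 to 61.8% in library 3. Transcripts with exon 3 were thus the larger part in library 1 there (50.3%), but not in libraries 2 to 4. By that table's estimated counts they were the larger part in libraries 1 (54.3%) and 4 (50.5%), but not in libraries 2 and 3. The lengthened exon 5 was steadier, at 17.7 ± 4.23% of coding TPM in the main table and 18.8 ± 4.03% in the second. Cbfb-204, which has no exon 5, had counts in library 4 alone in the main table and in libraries 2 to 4 in the second.

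**Figure D4:**
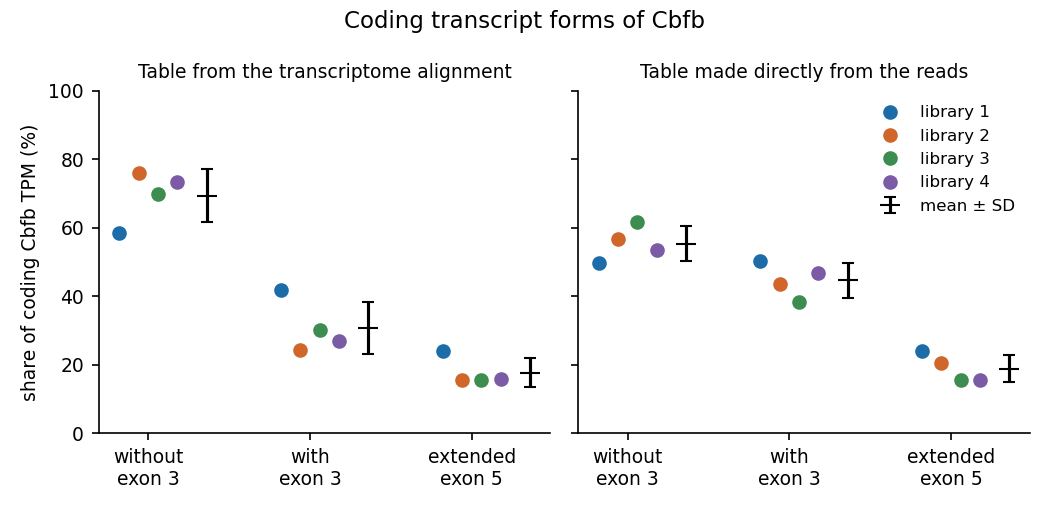
Percent of coding Cbfb TPM without exon 3, with exon 3 and with the lengthened exon 5, per library with the mean and SD, in the main table (left) and the second transcript table (right). Forms without exon 3 make up 58.3% in library 1 and 69.9% to 75.8% in libraries 2 to 4 on the left, and 49.7% to 61.8% on the right.

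The spread of each gene between libraries was tested on expected counts, scaled by edgeR's TMM method, with a Poisson likelihood-ratio chi-square test and Benjamini-Hochberg adjustment over 13045 genes. Such a test asks whether libraries differ by more than counting error. All 4 genes passed an adjusted p of 0.05, against a background of 68.6% of all genes tested (8945 of 13045), so passing does not set them apart from other genes. The ratio of the highest to the lowest library was 1.19 for Runx1, 1.47 for Runx2, 1.56 for Runx3 and 1.91 for Cbfb, and its median over all genes tested was 1.49.

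On expected counts Runx1 had the smallest ratio, at 68.7, 67.1, 79.1 and 80.1 TMM-scaled CPM (counts scaled to a common library size) in libraries 1 to 4 (adjusted p = 0.00227). Cbfb had the largest on expected counts, at 39.5, 34.7, 49.6 and 66.4 CPM (adjusted p = 6.01e-19), with library 4 the highest. This order was not kept in the whole-number counts on GENCODE M4, where the ratio was 2.51 for Runx1, 3.25 for Runx2, 1.17 for Runx3 and 1.81 for Cbfb. Runx2 had 18.9, 23.4, 27.8 and 27.1 CPM (adjusted p = 0.000605), and library 1 was the lowest. Without library 1 its call was lost (adjusted p = 0.207, ratio 1.19). Library 1 was also the one with the high erythroid sum, mostly globin RNA, whose part in the Runx2 values was not tested.
Runx3 had 23.6, 19.2, 20.6 and 29.96 CPM (adjusted p = 0.00019), with library 4 the highest, and without library 4 its call was lost (adjusted p = 0.141, ratio 1.24). Summed TPM of 8 CD8 T cell and NK cell markers was 148, 130, 161 and 209 in libraries 1 to 4, also lowest in library 2 and highest in library 4. Its part in the Runx3 values was not tested. Of those markers, 3 of 8 reached 1 TPM in every library. The cytotoxic-granule gene Nkg7 made up most of the sum (117, 108, 144 and 186 TPM). Cd8a (3.88 TPM) and Eomes (0.33) were also highest in library 4. Other markers did not follow: Cd8b1 (14.21 TPM) and Gzma (3.39) were highest in library 1. Prf1 (9.23) and Klrb1c (1.33) were highest in library 2, and Ncr1 was listed at 0 in 2 libraries.

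**Figure D5:**
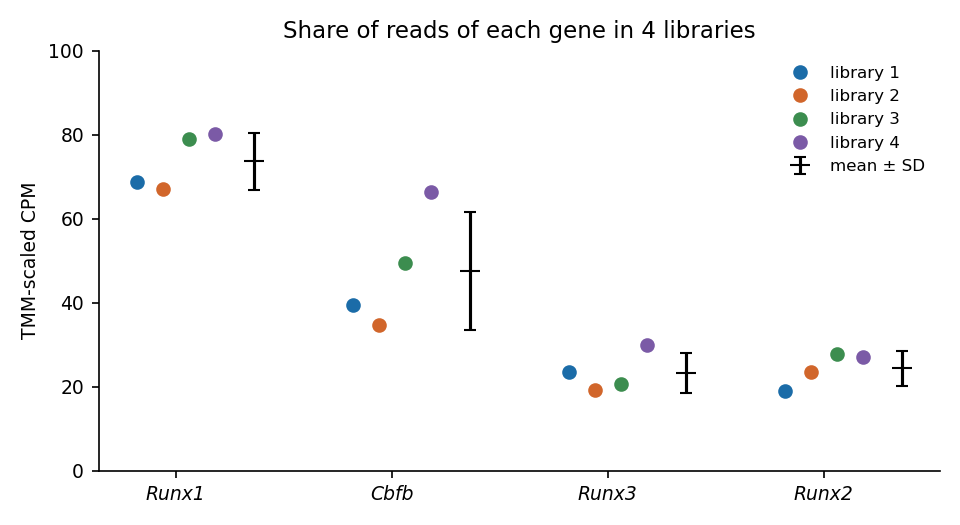
TMM-scaled CPM of each gene in the 4 libraries, with the mean and SD beside the points. Cbfb spreads from 34.7 to 66.4 and Runx1 from 67.1 to 80.1.

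The whole-number gene counts that the authors made on an older annotation, GENCODE M4, were much lower for all 4 genes. Runx1 had 269, 104, 238 and 161 counts there, Runx2 had 17, 23, 51 and 40, Runx3 had 38, 43, 42 and 28, and Cbfb had 88, 83, 141 and 112. The mean expected count exceeded the mean M4 count 3.28-fold for Runx1, 6.37-fold for Runx2, 5.22-fold for Runx3 and 3.77-fold for Cbfb. Over 10813 genes the median of this ratio was 0.862 (quartiles 0.634 and 1.39), and the members' ratios were above those of 92.1% to 96.2% of genes. Runx3 did not pass the spread test in the M4 counts (adjusted p = 0.906), while Runx1, Runx2 and Cbfb did (adjusted p = 5.44e-16, 6.77e-06 and 6.87e-06). The sources used here do not say how either table treated reads within these genes.

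Few genes overlapped the 4 members with appreciable counts. Of those that did, only Supt3, a transcription coactivator subunit on the strand opposite to Runx2, reached a mean of 10 counts, with 143 counts and 14.5 ± 4.69 TPM. The antisense genes Runx2os1, Runx2os2 and Runx2os3 and the antisense genes in Runx1 and Runx3 had mean counts of 0.25 to 2.75. The sources used here do not say whether the quantification used strand, so reads of Runx2 and Supt3 where their exons overlap may not be separable.

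The genes whose profile over the 4 libraries lay closest to each member were found by the Euclidean distance of centred log2 CPM, among tested genes within 2-fold of its mean TPM. For Runx1 they were Atxn2, Tvp23b and Naa16 (distances 0.02, 0.02 and 0.03), and for Runx2 they were Dtl, Tmed7 and Alg6 (0.02, 0.04 and 0.06). For Runx3 they were Rassf3, Gm12258 and Tbc1d13 (0.05, 0.05 and 0.07), and for Cbfb they were Mbd2, Gm15859 and Glud1 (0.08, 0.08 and 0.11). The members' distances to each other were larger, from 0.28 between Runx1 and Runx2 to 0.60 between Runx2 and Runx3. With 4 technical libraries and 3462 to 4079 candidates per gene, close profiles are easy to find.

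The RNA of proteins that work with Runx is given by list, beside the background of all genes tested. Of these, 11644 of 13045 reached 1 TPM in every library and 68.6% passed the spread test. The list counts at 1 TPM also include members under the count minimum, unlike the 13045 genes tested. Over nuclear protein-coding genes, with no such minimum, 9953 of 22015 reached 1 TPM in every library. Of 15 listed repressor cofactors, 13 reached 1 TPM in every library, and 12 of 14 tested passed the spread test (68.6% of all genes). The histone deacetylase Hdac1 (208 ± 23.7 TPM), the nuclear corepressor Ncor1 (139 ± 22.9) and the Polycomb ubiquitin ligase Rnf2 (89.7 ± 11.9) were the highest in TPM, and in M4 counts divided by length Rnf2 (54.9) lay below the Groucho-related Aes (62.1). Tle2, a Groucho-family corepressor, was the lowest at 1.00 ± 0.67 TPM, and Tle1 and Ring1 were tested and not called.
All 9 listed activating and chromatin cofactors reached 1 TPM in every library, and all 9 passed the spread test (68.6% of all genes). The arginine methyltransferase Prmt1 (74.0 ± 17.6 TPM) and the acetyltransferase Crebbp (59.0 ± 4.47) were the highest in TPM, and the acetyltransferase Ep300 was the lowest at 10.8 ± 2.51. In M4 counts divided by length, Crebbp (31.9) lay below the acetyltransferase Kat8 (51.2), and Prmt1 had no matched value. Of the 3 ETO-family genes, whose founding member is fused to Runx1 in leukaemia, Cbfa2t2 stood at 21.6 ± 2.59 TPM (1.31 in M4 counts divided by length), Cbfa2t3 at 0.38 ± 0.28 and Runx1t1 at 0.0175 ± 0.035. Both of those tested, Cbfa2t2 and Cbfa2t3, passed the spread test (68.6% of all genes).

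Of 20 listed transcription factors that partner Runx, 18 reached 1 TPM in every library, and 18 of 19 tested passed the spread test (68.6% of all genes), Smad3 being the exception. In the main table Ets1, which binds DNA together with Runx1, was the highest at 711 ± 130 TPM, followed by the T cell factors Tcf7 (322 ± 12.6) and Lef1 (158 ± 25.6), and the myeloid factor Spi1 was the lowest (0.70 ± 0.64). In M4 counts divided by length, Ets1 stood at 61.8, below Tcf7 (161) and Lef1 (118). Foxp3, the lineage factor of Treg, was at 20.30, 21.69, 32.81 and 36.40 TPM. It was lowest in library 1 and highest in library 4, and its range overlapped those of Runx1 and Cbfb in the main table. In M4 counts divided by length, Foxp3 averaged 52.1, against 7.87 for Runx1 and 5.80 for Cbfb.
Of 12 listed regulators of Runx or Cbfb protein level, 9 reached 1 TPM in every library, and all 10 tested passed the spread test (68.6% of all genes). In the main table the kinase Pim1 (186 ± 16.9 TPM) and the ubiquitin ligases Stub1 (60.8 ± 8.48) and Itch (53.9 ± 5.86) were the highest, and in M4 counts divided by length Pim1 (36.6) lay below Stub1 (102) and Itch (39.2). The coactivators Yap1 (0.0075 ± 0.015) and Wwtr1 (0.015 ± 0.03) were near 0.

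Of 30 listed Runx target genes in T cells, 29 were matched, 21 reached 1 TPM in every library, and 21 of 24 tested passed the spread test (68.6% of all genes). The T cell receptor constant genes Trbc2 (4047 ± 170 TPM) and Trbc1 (2443 ± 128), near-identical in sequence and so uncertain in how reads divide between them, and Cd4 were the highest. Cd4 stood at 516, 495, 309 and 318 TPM, a mean of 410 ± 111, and libraries 1 and 2 lay above libraries 3 and 4. Cd8a stood at 3.08, 0.87, 0.55 and 3.88 TPM, far below Cd4 in each library. Zbtb7b, the factor of CD4 lineage commitment that opposes Runx at these genes, stood at 9.40, 6.04, 8.40 and 7.80 TPM, overlapping the range of Runx3, but in M4 counts divided by length it averaged 7.46 against 1.25 ± 0.05 for Runx3. Cd8b1, Ifng and Spp1 were tested and not called, and the recombinase gene Rag1 was listed at 0 in every library. The median listed target had 14.3 TPM and the median listed repressor, activator, partner and protein-level regulator had 16.5, 33.5, 28.1 and 13.8 TPM. These medians include members under the count minimum. The median was 14.1 TPM over all genes tested and 0.648 TPM over all 22015 nuclear protein-coding genes.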

How the data were processed

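PolyA RNA-seq was measured in 4 technical libraries of 1 Treg sample. The authors deposited, per library, a gene and a transcript table with expected counts, TPM and, per transcript, the percent of the gene's TPM, per the file headers. They also deposited a table made directly from the reads, with estimated counts, TPM and effective length per transcript, and a table of whole-number gene counts. The submitters' processing notes name mm10, GENCODE M21 and GENCODE M4. The sources used here give neither programs nor strand setting.

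The members and lists were chosen with earlier results of these data known. Expected counts were rounded, and rows outside the gene annotation (0.133% to 0.504%) were left out. Genes averaging 10 or more counts were tested for library spread with TMM sizes (edgeR 4.0.16, R 4.3.3; DESeq2 1.42.0 as an alternative), 3 degrees of freedom and a threshold of 0.05. The edgeR quasi-likelihood test needs 2 groups and was not used. Level and start ratios used TPM + 0.1 and exact sign-flip tests over 16 patterns (scipy 1.17.1). The script was tested on simulated data. M4 counts were matched for 22195 of 22457 genes by identifier. Genes named were the members, overlapping genes of at least 10 counts, the 3 nearest profiles, the 3 highest and the lowest of each list, up to 5 called or uncalled members, and Foxp3, Cd4, Cd8a and Zbtb7b. A gene that this rule names is not reported here. Other single markers, such as Nkg7 and Ncr1, were named after their values were seen. Intervals and floors cover counting error only. Replicates carry no pairing.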

Additional observations from a re-analysis of the deposited data

Results flagged for a closer look

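In 37 quantities of the 4 genes, the library farthest from the others was compared with the spread of the remaining 3, and 2 stood apart, where chance gives about 1 in 20. Runx1-207, the Runx1 transcript with no coding sequence, stood at 9.21 TPM in library 1 and at 13.62 to 13.9 TPM in the others, a mean of 13.7 without library 1. The log2 ratio of Runx1 over Cbfb was −0.27 in library 4 and 0.41 to 0.45 in the others, a mean of 0.44 without library 4. Library 1 also had the highest erythroid marker sum (1091 TPM, mostly globin RNA) and library 4 the fewest counts (6648385). The part of either in these values was not tested.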

How the results depend on the processing

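Of 192 alternatives, 171 left the result where it was. On counts without length correction Runx3 over Runx2 turned to −0.065, and with protein-coding transcripts only, added after seeing the data, Runx1 over Cbfb turned to −0.73. Levels depended on the scale. In the table made directly from reads, Runx1, Runx2, Runx3 and Cbfb stood at 17.5, 2.88, 4.47 and 14.7 TPM. From M4 counts divided by effective length they stood at 7.87, 0.778, 1.25 and 5.80. TPM rescaled over nuclear protein-coding genes gave Runx1 37.8, Runx2 7.20, Runx3 9.83 and Cbfb 32.3. The direct table rescaled in the same way gave 36.7, 6.00, 9.31 and 30.6 in that order. On that scale the main and direct tables lay closer together. Runx1 was at 14.4 with coding transcripts only. This setting and the rescaled direct table were added after seeing the data. By counts Runx1-201 held 52.1% of Runx1, and in the direct table Runx3-201 held 99.7% of Runx3 and Cbfb-203 held 44.5% of Cbfb. The causes were not tested. The count of genes with library spread was 8945, and 7049 to 8154 without one library. Calls lost for Runx2 and Runx3 are given with their values above. With a gap of 200 bp between starts, the distal Runx1 share was 71.0%. No paired analysis was possible because there was 1 group. Proximal shares of Runx2 and Runx3 rest on 24.37 and 0 expected counts, which limits their precision. In M4 counts the ratio of highest to lowest library was 2.51 for Runx1 and 3.25 for Runx2.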
